A study of Mus musculus with 4 samples.

Results

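Of the 36808 genes in each deposited table, 10 genes used as markers of neurons were followed, matched by exact symbol: Tubb3, Nefl, Nefm, Stmn2 and Dcx of the cytoskeleton, the RNA-binding protein genes Elavl3 and Elavl4, the growth cone gene Gap43, the synaptic vesicle gene Syp and the neuropeptide gene Sst. Transcripts were measured by directional mRNA-seq in whole mouse embryos. There were 4 groups with 1 library each: Tc/Tc E10, wild type (WT) E10, Tc/Tc E8 and WT E8. Tc/Tc embryos are homozygous for Tc, a mutant allele of T (Brachyury), whose T-box protein is needed for posterior mesoderm and the notochord. The labels give E10.0 to 10.5 for the later stage, E7.5 to 8.0 for the earlier one, and (C3H/HeH x 101/H)F1 as the strain of origin of all 4 groups. The sources used here do not give how many embryos went into a library.

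Neurons arise when neural tube progenitors, driven by proneural transcription factors, leave the cell cycle. A new neuron switches on its own tubulin, neurofilaments and microtubule-associated proteins, which build and stabilise the axon, and Hu-family RNA-binding proteins, which stabilise and splice neuronal mRNAs. Synaptic vesicle and neuropeptide genes mark further maturation. In the mouse the neural plate is still forming at the earlier stage, and the first neurons of the cranial ganglia, hindbrain and spinal cord have been born by the later one.

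Levels are FPKM, which divides fragment counts by transcript length and by the library's mapped fragments, so they can be compared between genes. Total FPKM per library ranged between 598365 and 737448, and between 12900 and 13583 genes reached 1 FPKM. The tables give no read depth. With 1 library a group, no difference below was tested against the spread between embryos. Each log2 ratio is of (FPKM + 1), which understates the difference of low genes. A gene was counted as higher or lower when this ratio was at least 1 in size, a size rule and not a test, among genes with 1 FPKM or more in either library. T itself stood at 30.4 FPKM in Tc/Tc E10 and 7.18 in WT E10, and at 48.3 FPKM in Tc/Tc E8 and 36.7 in WT E8, which does not check the genotype because the transcript level does not show the allele. In whole embryos fewer neurons, less RNA per neuron and RNA from other cells cannot be told apart. Gap43, Stmn2, Nefm, Nefl and Tubb3 already stood at 16.9, 11.0, 8.42, 5.17 and 4.65 FPKM in WT E8. Their RNA is therefore not read here as coming from neurons alone.

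RefSeq promoter windows (GRCm38.p6, 250 bases before to 50 after a start) were at hand for 6 of the 10 genes, in 10 windows. Shown are those of Elavl3, of Elavl4 at 1 of its 4 windows, and of Tubb3, 3 of the genes that were lower in Tc/Tc at E10. Capitals mark the E-box CANNTG, the motif bound by proneural bHLH factors, and the letters CAGCACC and GGACAGC of the neuron-restrictive RE1 element, searched on both strands.
Elavl3, chr9:22051974-22052273, minus strand: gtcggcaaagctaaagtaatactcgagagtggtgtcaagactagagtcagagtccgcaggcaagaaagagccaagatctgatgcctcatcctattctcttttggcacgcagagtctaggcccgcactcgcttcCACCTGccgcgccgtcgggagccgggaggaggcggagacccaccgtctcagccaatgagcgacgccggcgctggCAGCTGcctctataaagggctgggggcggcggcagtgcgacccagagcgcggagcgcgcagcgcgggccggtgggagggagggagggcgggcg
Elavl4, chr4:110287462-110287761, minus strand: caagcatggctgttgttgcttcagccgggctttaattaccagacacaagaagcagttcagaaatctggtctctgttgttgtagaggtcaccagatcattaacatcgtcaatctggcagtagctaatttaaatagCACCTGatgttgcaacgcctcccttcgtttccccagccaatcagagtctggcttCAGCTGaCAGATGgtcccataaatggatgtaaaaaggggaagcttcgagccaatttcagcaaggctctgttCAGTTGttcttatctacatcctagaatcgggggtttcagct
Tubb3, chr8:123411303-123411602, plus strand: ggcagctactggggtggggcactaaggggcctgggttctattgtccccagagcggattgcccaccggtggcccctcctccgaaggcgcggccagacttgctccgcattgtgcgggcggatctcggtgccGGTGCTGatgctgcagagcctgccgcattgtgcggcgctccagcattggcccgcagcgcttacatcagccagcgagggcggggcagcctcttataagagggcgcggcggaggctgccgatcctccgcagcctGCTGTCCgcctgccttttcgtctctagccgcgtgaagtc

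The E-box was found in 5 of the 10 windows, in 3 of the 6 genes, against 72.3% of the 32851 RefSeq windows of the same length. Its form CAGCTG, which is contained in the CANNTG count, was in 3 windows, against 16.3% of all windows. CAGATG, another form in that count, was also in 3 windows, against 17.2%, and CATATG was in 0, against 3.91%. Of the 4 Elavl4 windows 2 overlap almost wholly, so their matches repeat. The 2 RE1 stretches were each found in 1 window, that of Tubb3, against 7.14% of all windows for CAGCACC and 6.56% for GGACAGC. They were searched separately and lie far apart in that window, and a whole RE1 element was not searched for. In the windows of Dcx and Syp no letters of these motifs were found. These counts describe letters in a window only.

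At E10, 8 of the 10 genes were lower in Tc/Tc than in WT embryos and 0 were higher, where 3.08% of 14265 genes measured were lower and 4.94% higher (440 and 705 genes, or 568 and 487 when ratios are centred on the median of all genes). The median log2 ratio of the 10 was -1.93, against 0.16 over all genes. Their summed level was 45.4 FPKM in Tc/Tc and 133 FPKM in WT. Stmn2 and Gap43 were within the rule. With second estimates of both libraries, from the stage tables, 6 of 9 genes were lower. Dcx, Elavl3 and Sst reached 1 FPKM in the WT library alone, so they entered this comparison only because they were high there. The members were picked with results of these libraries known, and their count is not independent evidence of a direction.

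Of the 5 cytoskeletal genes 4 were lower at E10, with a median log2 ratio of -1.90. Tubb3 (ENSMUSG00000062380, chromosome 8), a beta-tubulin used as a marker of neurons, had 6.37 FPKM in Tc/Tc E10 and 26.6 FPKM in WT E10. At E8 it had 2.75 FPKM in Tc/Tc and 4.65 FPKM in WT. WT E10 thus stood well above the other 3 libraries, and Tc/Tc E10 held 24.0% of its level (log2 ratio -1.90). Both estimates of each library were equal for Tubb3 to the digits printed.

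The neurofilament subunits Nefm and Nefl form the intermediate filaments that set axon calibre. Nefm (ENSMUSG00000022054) and Nefl (ENSMUSG00000022055) are neighbours on chromosome 14. Nefm had 3.51 FPKM in Tc/Tc E10, 21.3 in WT E10, 11.8 in Tc/Tc E8 and 8.42 in WT E8. Its Tc/Tc E10 level was the lowest of the 4 libraries and 16.5% of that in WT E10 (log2 ratio -2.30). Nefl had 3.35 FPKM in Tc/Tc E10, 8.47 in WT E10, 4.04 in Tc/Tc E8 and 5.17 in WT E8. Tc/Tc E10 was again the lowest library, by a smaller margin (log2 ratio -1.12). In the GENCODE M21 annotation Nefl and Nefm lie on opposite strands with overlapping ends, and 32.8% of the exon bases of Nefl are shared with Nefm. The sources used here do not give whether the authors' counting used the strand, so reads from that stretch could have been given to either gene.

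Stmn2 (ENSMUSG00000027500, chromosome 3), a stathmin that regulates microtubule turnover in growing axons, had 8.59 FPKM in Tc/Tc E10, 9.20 in WT E10, 9.42 in Tc/Tc E8 and 11.0 in WT E8. All 4 libraries lay close together, with a log2 ratio of -0.09 at E10. Dcx (ENSMUSG00000031285, chromosome X), doublecortin, a microtubule-associated protein of migrating neurons, had 0.0982 FPKM in Tc/Tc E10, 3.29 in WT E10, 0.132 in Tc/Tc E8 and 0.0648 in WT E8. WT E10 was the sole library above 1 FPKM, and the log2 ratio at E10 was -1.97. For Dcx at E10 the authors' deposited table gave p = 0.278, which compares the reads of these libraries and not the genotypes.

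Both RNA-binding genes were lower at E10. Elavl3 (ENSMUSG00000003410, chromosome 9) had 0.682 FPKM in Tc/Tc E10, 5.15 in WT E10, 1.22 in Tc/Tc E8 and 0.576 in WT E8. Elavl4 (ENSMUSG00000028546, chromosome 4) had 1.37 FPKM in Tc/Tc E10, 9.31 in WT E10, 0.283 in Tc/Tc E8 and 0.847 in WT E8. Each was highest in WT E10, with Tc/Tc E10 at 13.2% of that level for Elavl3 (log2 ratio -1.87) and 14.8% for Elavl4 (log2 ratio -2.12). The second estimate of Elavl4 in WT E10 was 11.9 FPKM, the largest shift of any of the genes besides Syp.

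Gap43 (ENSMUSG00000047261, chromosome 16), a membrane-attached phosphoprotein of growth cones, had 20.3 FPKM in Tc/Tc E10, 28.6 in WT E10, 10.8 in Tc/Tc E8 and 16.9 in WT E8. It was the highest of the 10 genes in both E10 libraries, and its genotype ratios were alike at the 2 stages (log2 ratios -0.48 at E10 and -0.60 at E8). Neither passed the size rule.

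Syp (ENSMUSG00000031144, chromosome X) encodes synaptophysin, an integral membrane protein of synaptic vesicles. It had 1.18 FPKM in Tc/Tc E10, 15.1 in WT E10, 0.412 in Tc/Tc E8 and 0.642 in WT E8, a log2 ratio of -2.89 at E10. This value depends on the table. The second estimates were 3.19 FPKM for Tc/Tc E10, computed from the fold change in the authors' deposited table, and 4.92 FPKM for WT E10. With both of those the log2 ratio was -0.50, within the size rule, and with the second WT value alone it was -1.44. Of the Syp exon bases 16.8% are covered by an annotated antisense gene, Gm14703. Sst (ENSMUSG00000004366, chromosome 16), the somatostatin precursor gene, is listed at 0 in the Tc/Tc E10 library, against 6.20 FPKM in WT E10. It was at 0 in both E8 columns of the genotype table and was not estimated there, since a pair of zeros can be a failed estimate. The second estimates list it at 0 in WT E8, beside 6.20 FPKM in WT E10. Notch1, a receptor gene of neural progenitors, is likewise listed at 0 in all 4 libraries. No fold is given for Sst, and without it the median log2 ratio of the other 9 genes was -1.90.

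**Figure D1:**
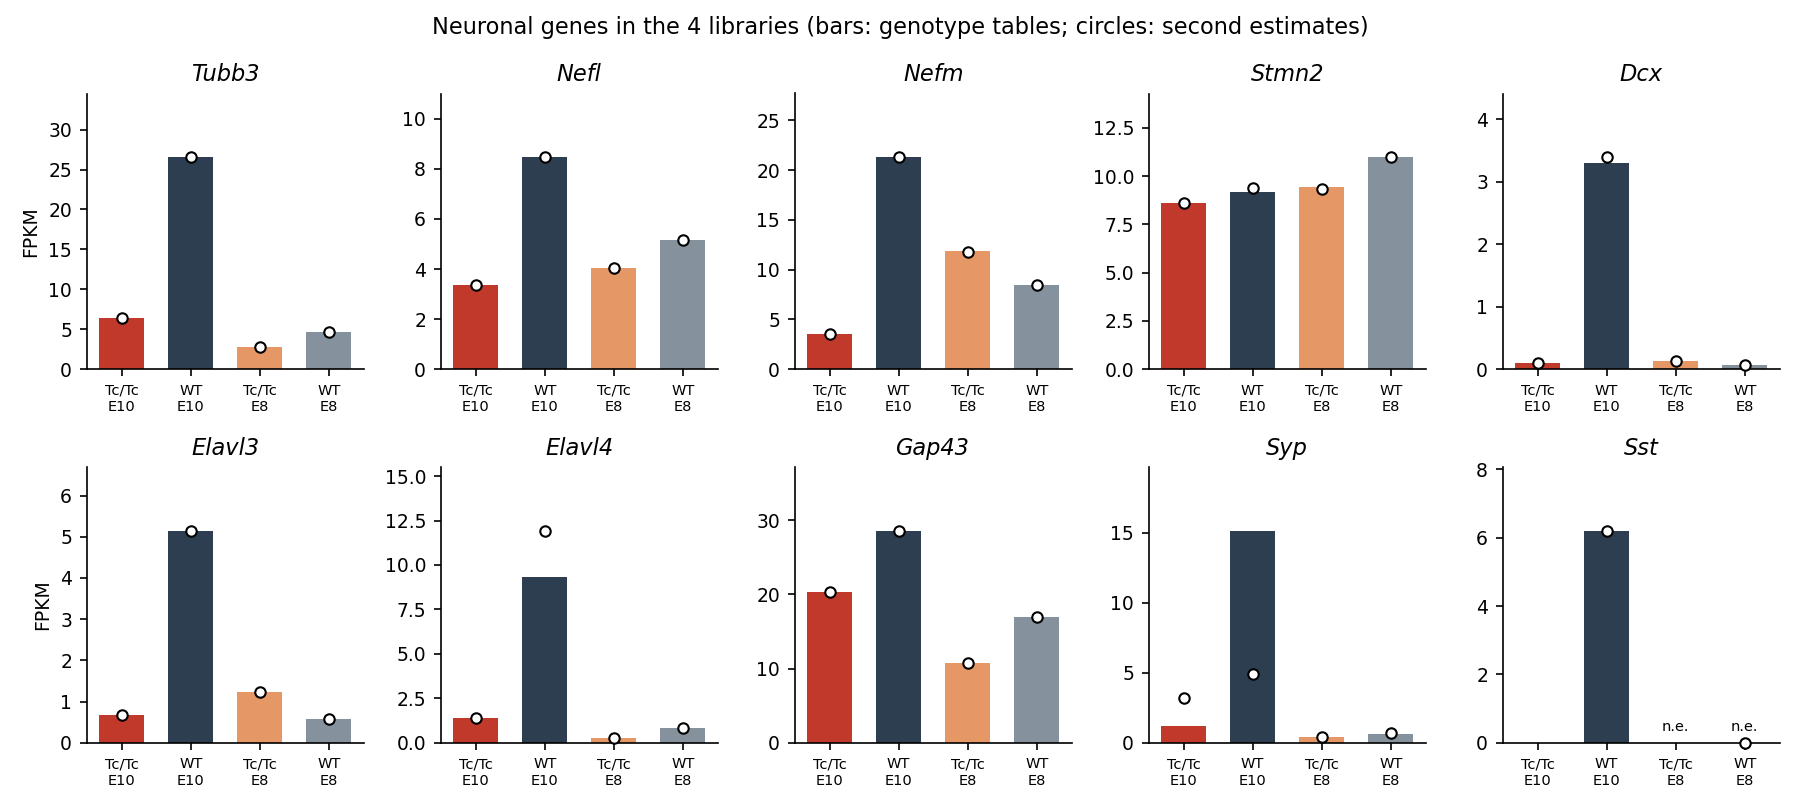
FPKM of each of the 10 genes (y axis, linear, own scale per gene) in Tc/Tc E10, WT E10, Tc/Tc E8 and WT E8. Bars are the genotype tables and open circles the second estimates. The mark n.e. is for Sst at E8, not estimated in the genotype table. WT E10 is the tallest bar for 9 genes and not for Stmn2, and Syp is the gene whose circles at E10 (3.19 and 4.92 FPKM) lie far from its bars (1.18 and 15.1 FPKM).

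The authors' deposited table for E10 held p-values below 0.05 for 6 of the 10 genes, where 15.5% of the 14265 genes measured had one. Among the 6 is Sst, whose p is listed as 0 without a fold change. In the authors' deposited table for E8 it was 0 of 10, but only 6 of these are among the 13547 genes measured, of which 12.2% had one. Dcx, Elavl4 and Syp lay below 1 FPKM in both E8 libraries, and Sst was not estimated. With 6 genes, 0 is near that share. The p-values compare the reads of single libraries and say nothing of the spread between embryos. The lowest of those above 0 was that of Nefm, 2.02e-05 in the authors' deposited table.

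At E8 no measured gene differed by the size rule. Of the 10 genes, 6 could be measured, and 0 passed the rule in either direction, where 7.22% of 13547 genes did (407 lower and 571 higher, or 572 and 385 with FPKM rescaled to equal totals). The median log2 ratio was -0.25, against 0.06 over all genes. Tubb3, Nefl, Stmn2 and Gap43 had ratios between -0.60 and -0.20, and Nefm and Elavl3 had ratios of 0.45 and 0.50. Elavl3 reached 1 FPKM in the Tc/Tc library alone, and Dcx, Elavl4 and Syp stayed below 1 FPKM in both E8 libraries. The genotype ratio at E10 minus that at E8, on the log2 scale, was -2.75 for Nefm, -2.37 for Elavl3, -1.31 for Tubb3, -0.83 for Nefl, 0.11 for Stmn2 and 0.13 for Gap43. The difference between the stages was not tested, as each value is from single libraries.

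**Figure D2:**
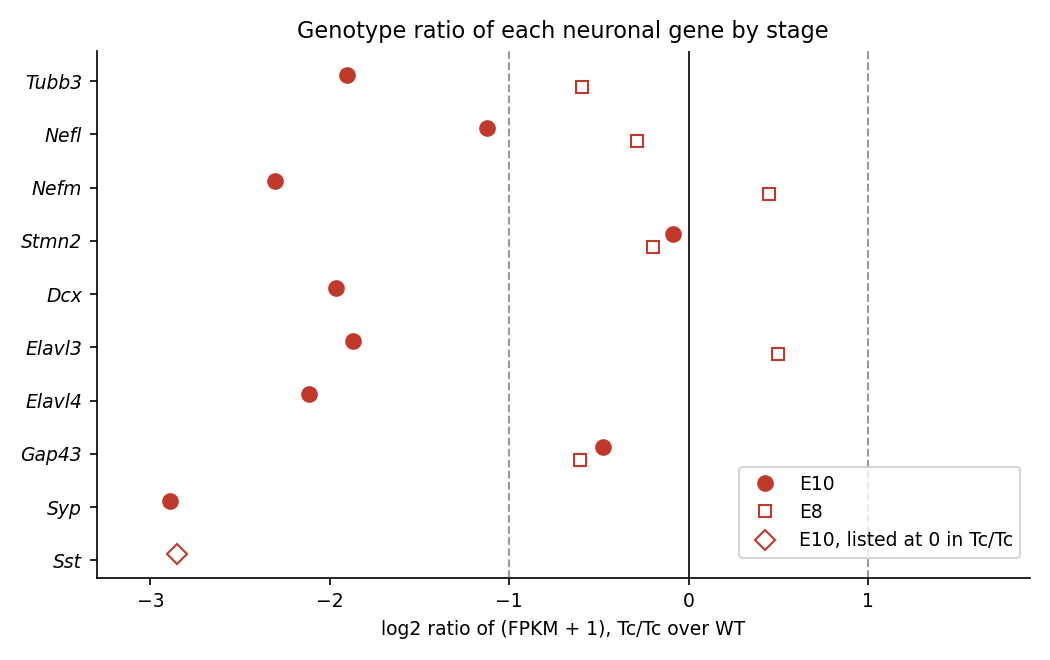
Log2 ratio of (FPKM + 1), Tc/Tc over WT (x axis), for each gene (y axis), with filled circles for E10, open squares for E8 and an open diamond for Sst, listed at 0 in Tc/Tc E10; dashed lines mark the size rule. At E10, 8 genes lie left of -1 while Stmn2 (-0.09) and Gap43 (-0.48) do not, and all 6 squares lie inside the lines.

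The stage comparison asked how the same genes differ between E10 and E8 within a genotype. It joins values from the 2 genotype tables and shares its libraries with the comparisons above. In WT embryos 6 of the 9 genes measured were higher at E10 and 0 were lower, where 5.36% of 13782 genes were higher and 5.78% lower (739 and 796 genes, or 828 and 690 with equal totals and 845 and 683 when centred). Their median log2 ratio was 1.96, and that of all genes -0.07. Dcx, Elavl3, Elavl4 and Syp reached 1 FPKM at E10 alone, so they entered only through the library where they were high. Of the genes above 1 FPKM at both stages, Tubb3 (log2 ratio 2.28) and Nefm (1.24) passed the rule, and Gap43 (0.72), Nefl (0.62) and Stmn2 (-0.23) did not. Without Syp the median was 1.60. With second estimates 7 of 10 genes were higher (median 1.88), where 1048 of 14239 genes were higher and 734 lower. The added gene was Sst, which also entered only through E10.

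In Tc/Tc embryos 0 of 8 measured genes were higher at E10 and 1, Nefm, was lower, where 6.23% of 13717 genes were higher and 4.45% lower (855 and 611 genes, or 1369 and 400 with equal totals). The median log2 ratio was 0.25, against 0.04 over all genes. Tubb3 (0.97), Elavl4 (0.89) and Gap43 (0.85) had the highest ratios and lay just inside the rule. With FPKM rescaled to equal totals these 3 genes passed it, at 1.20, 1.005 and 1.12, while the median of all genes moved to 0.29. With the second estimates Syp had a ratio of 1.55 and passed as well. Elavl3 (-0.40), Nefl (-0.22) and Stmn2 (-0.12) had negative ratios. Elavl4 and Syp reached 1 FPKM at E10 alone, Elavl3 at E8 alone, and Dcx at neither stage in this genotype.

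Nefm differed in direction between the genotypes, with a log2 ratio of E10 over E8 of -1.51 in Tc/Tc and 1.24 in WT. The stage ratio in Tc/Tc minus that in WT was -2.75 for Nefm, -2.67 for Syp, -2.37 for Elavl3, -1.59 for Elavl4, -1.31 for Tubb3 and -0.83 for Nefl. It was 0.11 for Stmn2 and 0.13 for Gap43. By construction this equals the genotype ratio at E10 minus that at E8, given above where measured, so it is not a second result. The value of Syp depends on the table: with second estimates its stage ratio was 1.55 in Tc/Tc and 1.79 in WT, a difference of -0.24, while that of Elavl4 became -1.92. No test of these differences was possible with 1 library a group.

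**Figure D3:**
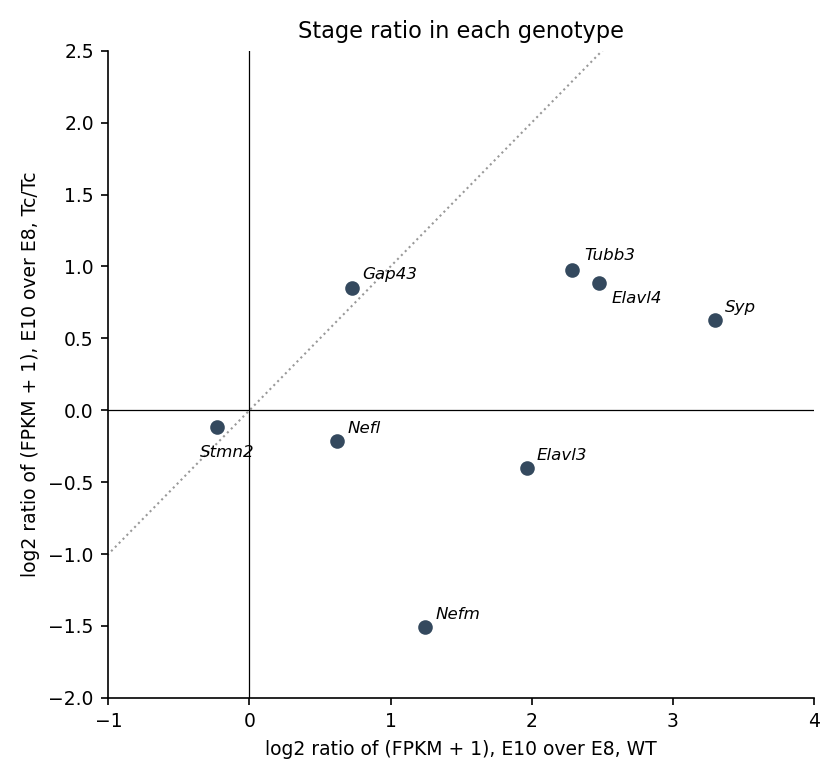
Log2 ratio of (FPKM + 1), E10 over E8, in Tc/Tc (y axis) against WT (x axis), 1 point for each of the 8 genes measured in both; the dotted line marks equal ratios. Gap43 and Stmn2 lie beside the line, the other 6 genes lie below it, and Nefm is at -1.51 in Tc/Tc and 1.24 in WT; with second estimates, not drawn, Syp is at 1.55 in Tc/Tc and 1.79 in WT, near the line.

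Broadly expressed relatives of the same protein families were set beside the neuronal genes. None of 8 such genes passed the size rule between genotypes at E10 (median log2 ratio 0.09). Over all genes measured 3.08% were lower and 4.94% higher, so none of 8 is near those shares. Tubb5, the main beta-tubulin of dividing cells, had 1289 FPKM in Tc/Tc E10 and 959 FPKM in WT E10. Tubb3 amounted to 0.494% of the Tubb5 level in Tc/Tc E10 and 2.77% in WT E10. Elavl1, the ubiquitous Hu protein gene, had 31.4 FPKM in Tc/Tc E10 and 25.7 FPKM in WT E10. Elavl4 amounted to 4.38% of Elavl1 in Tc/Tc E10 and 36.2% in WT E10, and Elavl3 to 2.17% in Tc/Tc E10 and 20.0% in WT E10. Stmn2 was 2.89% of Stmn1, the stathmin of proliferating cells, in Tc/Tc E10 and 2.59% in WT E10. The farthest of the relatives were Marcks (log2 ratio -0.74), Sypl (0.73), Vim (-0.68) and Tubb5 (0.43), none past the rule.

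Other genes of neuronal structure and function made up 5 lists of 68 genes. At E10, 5 of the 44 measured were lower in Tc/Tc and 1 was higher, with a median log2 ratio of -0.33. In the list of other cytoskeletal genes 2 of 12 were lower and 1 was higher, and Stmn4 and Nefh among them reached 1 FPKM in 1 library alone. Tubb2b, a beta-tubulin of neural progenitors and neurons, had 33.1 FPKM in Tc/Tc and 101 FPKM in WT (log2 ratio -1.58). Stmn4, a stathmin of neurons, is listed at 0 in the Tc/Tc E10 library, against 3.18 FPKM in WT E10. Nefh, the heavy neurofilament subunit, was the one that was higher, at 1.95 FPKM in Tc/Tc and 0.107 FPKM in WT (log2 ratio 1.42), opposite to Nefm and Nefl. Dclk1, a doublecortin-like kinase, lay just inside the rule, with a log2 ratio of -0.99.

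Of the other neural RNA-binding genes 2 of 7 were lower, against 3.08% of all genes measured. Both reached 1 FPKM in the WT library alone, so they could not have been counted as higher. Celf3, a CELF-family RNA-binding protein gene, had 0.405 FPKM in Tc/Tc E10 and 2.58 in WT E10 (log2 ratio -1.35). Srrm4, a splicing factor gene of neural microexons, had 0.332 FPKM in Tc/Tc E10 and 2.32 in WT E10 (log2 ratio -1.32). The splicing factor genes Nova1 and Nova2 had ratios of -0.36 and -0.31, and Nova2 reached 1 FPKM in the WT library alone. Growth cone and adhesion genes had 0 of 7 past the rule, near the shares over all genes. The farthest were Cntn2 (-0.83), Basp1 (-0.80), Cend1 (-0.43) and Nrcam (0.38). Of these, Cntn2 and Cend1 reached 1 FPKM in the WT library alone.

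Of the other synaptic genes 1 of 15 was lower and 0 were higher, near the shares over all genes measured (3.08% lower and 4.94% higher). It was Scg3, a granin of secretory granules, at 1.10 FPKM in Tc/Tc E10 and 4.73 in WT E10 (log2 ratio -1.45). Cplx1, Snap25 and Chgb had ratios of -0.79, -0.77 and -0.75, and each reached 1 FPKM in the WT E10 library alone. Of 11 other neuropeptide genes 3 were measured, and Penk (0.72), Gal (-0.25) and Cck (-0.02) were within the rule. Gal too reached 1 FPKM in WT E10 alone. Neuronal fate factors were lower in 9 of 13 and higher in 1 (median -1.27), but 6 of the 9 reached 1 FPKM in WT alone and the 1 in Tc/Tc alone. Neurod1 and Neurod4 were listed at 0 in Tc/Tc E10, against 4.33 and 4.30 FPKM in WT E10, Ebf3 had a log2 ratio of -1.59, and the gene that was higher was Lhx1, at 3.25 FPKM in Tc/Tc E10 and 0.440 FPKM in WT E10.

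Over all 13547 genes measured at E8, 407 were lower in Tc/Tc and 571 higher, or 7.22% in either direction. Of the 34 measured genes of the 5 lists, 4 were lower and 0 higher (median -0.46). They were Dpysl5 (log2 ratio -1.62), Ncam1 (-1.37), Nrcam (-1.25) and Tubb2b (-1.17), named after their values were seen. Between stages, 8 of 42 were higher at E10 and 1 was lower in WT, with a median of 0.52, and 8 of 35 were higher and 0 lower in Tc/Tc, with a median of 0.69. Over all genes measured 5.36% were higher and 5.78% lower in WT, and 6.23% and 4.45% in Tc/Tc.

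Markers of other cell types also differed between the E10 libraries, and their part in the neuronal result was not tested. For the counts that follow, the shares over all genes measured were 3.08% lower and 4.94% higher. Neural progenitor genes summed to 210 FPKM in Tc/Tc E10 and 291 FPKM in WT E10, with 3 of 7 lower and 0 higher. Fabp7, a fatty acid binding protein of radial glia, had a log2 ratio of -2.86, Nes, nestin, of -1.41, Hes5, a Notch target, of -1.11, and Sox2 of -0.42. All 10 yolk sac genes were higher, 6 of them at 1 FPKM or more in Tc/Tc alone, with summed levels of 661 FPKM in Tc/Tc E10 and 16.3 FPKM in WT E10, and Apoc2, Amn and Spink3 listed at 0 in WT E10. Erythroid genes were lower in 4 of 8, summing to 2167 FPKM in Tc/Tc E10 and 6094 FPKM in WT E10. Heart genes were higher in 3 of 6, with 694 FPKM in Tc/Tc E10 and 364 FPKM in WT E10. Of the 4 neural crest genes matched, 0 passed the rule, with 27.3 FPKM in Tc/Tc E10 and 21.4 FPKM in WT E10. At E8 the yolk sac sum was 3048 FPKM in Tc/Tc and 945 FPKM in WT, and the heart sum was 16.9 FPKM in Tc/Tc and 338 FPKM in WT.

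**Figure D4:**
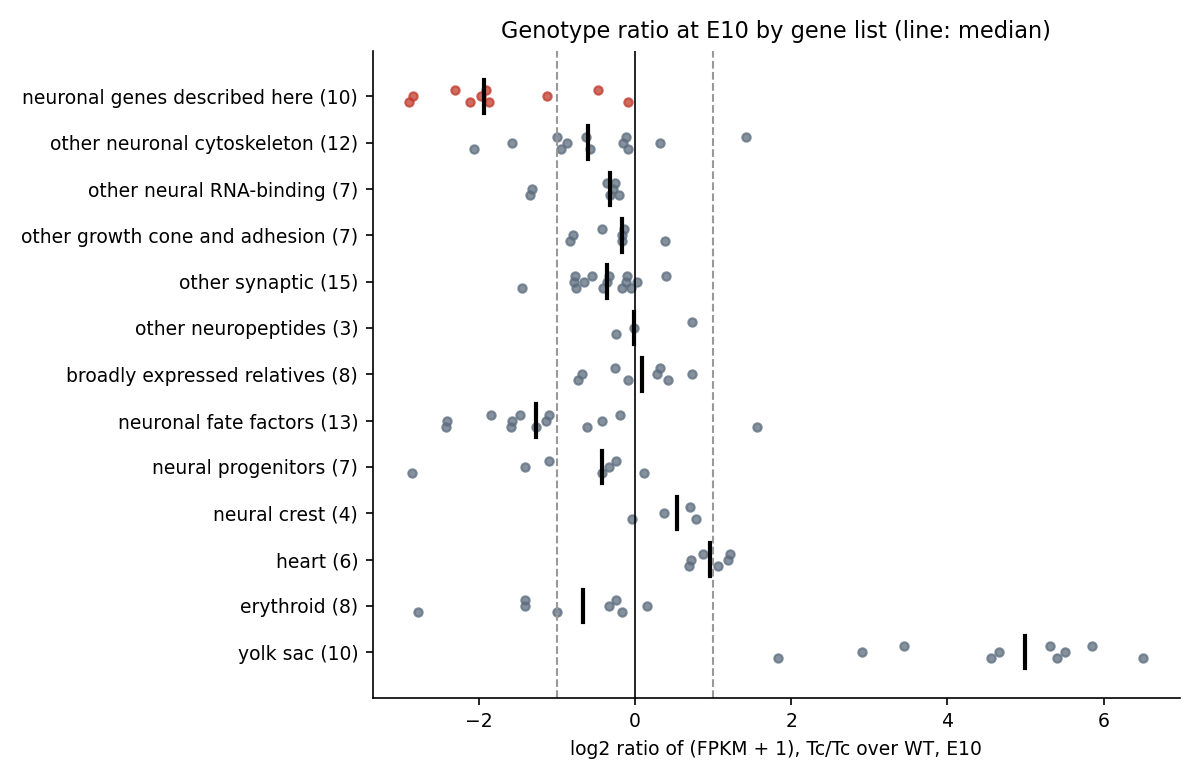
Log2 ratio of (FPKM + 1), Tc/Tc over WT at E10 (x axis), for every measured gene of each list (y axis, number measured in brackets), 1 point a gene, with black lines for medians and dashed lines for the size rule; genes listed at 0 in 1 library are included. The 10 neuronal genes have a median of -1.93, other neuronal lists have medians between -0.60 and -0.02, broadly expressed relatives 0.09, neuronal fate factors -1.27 and yolk sac genes 4.99.

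The mean profile of the 9 genes estimated at both stages, as log2(FPKM + 1) centred over the 4 libraries, was 1.25 in WT E10, -0.39 in Tc/Tc E10, -0.51 in Tc/Tc E8 and -0.35 in WT E8. Of 14127 other genes, those nearest to it by Euclidean distance over the 4 libraries were Myt1 (distance 0.051), a gene listed as AC129179.1 (0.156), Mab21l1 (0.168), Glra1 (0.189) and Prdm8 (0.199). Myt1, a zinc finger factor gene, had 0.0630 FPKM in Tc/Tc E10, 2.37 in WT E10, 0.0671 in WT E8 and was listed at 0 in Tc/Tc E8. With 4 libraries, likeness of this kind describes these samples and no more.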

How the data were processed

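RNA was measured in 4 libraries of whole embryos. Per the labels' protocols, RNA was taken with TRIzol LS and made into directional libraries with ScriptSeq v2. The submitters' processing notes name Bowtie2, Cuffdiff and build mm9, without versions. Per the file headers, 4 pairwise tables deposited by the authors hold FPKM values, the natural log of the fold change and an unadjusted p-value per gene. E10 levels came from the E10 genotype table, E8 levels from the E8 genotype table, and second estimates from the stage tables. Of the sample columns 1 was left unused, headed WT E10 in the stage table named for Tc/Tc. The deposited natural log fold changes there equalled Tc/Tc E10 over Tc/Tc E8 within 0.01 for 86.1% of 17012 genes, against 2.37% for WT E10. The second Tc/Tc E10 value is Tc/Tc E8 times that fold.

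Genes at 0 in both columns of a table were not estimated. Ratios were log2 of (FPKM + 1), with a minimum of 1 FPKM and a size rule of 1, in Python 3.11.15 with pandas 2.3.3. The calculation was run on simulated data with large set changes in genes well above that minimum. This checks the arithmetic and not the calls made here, least of all those of low genes. No test was made, as each group has 1 library. Between 2 estimates of 1 library the log2 SD was 0.061 for WT E8 and 0.174 for both Tc/Tc E8 and WT E10. Shared sequence was checked over 31-base windows of GENCODE M21 transcripts: at most 3.75% of the windows of any of the 10 genes occur in another gene, for Elavl3.

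Named were the 10 genes, up to 4 genes per list with the largest ratio at E10, and the 5 nearest profiles; 1 gene that this rule names is not reported here. Members and lists were chosen with earlier results of these data known. Proteins were not analysed here. An older symbol was used for Tubb4b (Tubb2c). The alternatives tried were other pseudocounts, minimums, scaling, centring and the second estimates.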

Additional observations from a re-analysis of the deposited data

Results flagged for a closer look

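Nefm was the gene whose stage ratios passed the size rule in opposite directions in the 2 genotypes: the log2 ratio of E10 over E8 was -1.51 in Tc/Tc and 1.24 in WT. The levels were 3.51 FPKM in Tc/Tc E10 and 11.8 FPKM in Tc/Tc E8, and 21.3 FPKM in WT E10 and 8.42 FPKM in WT E8. The difference was not tested, since each value is from 1 library. Both estimates of each library gave the same picture, with second values of 3.51 and 11.8 FPKM in Tc/Tc and 21.3 and 8.42 FPKM in WT. With a pseudocount of 5 both ratios fell just short of the rule, at -0.98 in Tc/Tc and 0.97 in WT.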

How the results depend on the processing

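The direction of each median held under every alternative run except that of the Tc/Tc stage comparison, which was -0.044 with no minimum level against 0.25 in the main setting. A pseudocount of 5 lowered the count of genes lower at E10 to 5 (median -1.0005) and of those higher at E10 in WT to 3 (median 0.86), and it left 0 lower in the Tc/Tc stage comparison (median 0.053); the cause is its construction, which shrinks low genes. With a pseudocount of 0.1 the E10 genotype median was -2.62, the WT stage median 2.49, and 3 genes were higher in the Tc/Tc stage comparison. With equal totals 3 genes were likewise higher there (median 0.44), and the E8 genotype median was -0.44. By construction this scaling lowers Tc/Tc E8, which had the largest total, 737448 FPKM, against the library it is compared with. The medians of all genes moved likewise, to 0.29 and -0.15. A minimum of 5 FPKM, which leaves fewer genes, gave a WT stage median of 1.60, as did leaving out Syp, an alternative chosen after seeing the data. The second estimates of both E10 libraries, also chosen then, gave 6 genes lower at E10, with Syp within the rule and Sst not estimated, and 1 gene, Syp, higher in the Tc/Tc stage comparison. Over all genes at E10, 720 were lower and 1038 higher with a pseudocount of 0.1, and 147 and 272 with 5, against 440 and 705 with 1. Of 240 values of single genes under alternatives, 209 kept their side of the rule and moved by less than the re-estimation error or stayed past the rule, 8 dropped below it, 7 passed it newly and 16 shifted within it. No paired analysis was possible because each group has 1 library. Depth is unknown, so levels below 1 FPKM, as of Dcx in 3 libraries, carry no counting interval.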

Other observations

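Stmn2 and Gap43 together made up 63.5% of the summed FPKM of the 10 genes in Tc/Tc E10 and 28.4% in WT E10. At E8 the share was 49.4% in Tc/Tc and 57.8% in WT. The share was highest in Tc/Tc E10 and lowest in WT E10. Stmn2 and Gap43 are the genes within the rule at E10, so the shares restate the levels above and show no added likeness between libraries. Excluding Syp, whose estimates differ, the summed level was 44.2 FPKM in Tc/Tc E10 and 118 FPKM in WT E10. Syp amounted to 4.03% of the level of its broadly expressed relative Sypl in Tc/Tc E10 and 87.7% in WT E10, in the genotype table. These shares depend on the estimate of Syp. It was 1.18 FPKM in Tc/Tc E10 and 15.1 in WT E10 there, and 3.19 and 4.92 FPKM in the second estimates. Nefm amounted to 1.12% of the level of Vim in Tc/Tc E10 and 4.24% in WT E10, and to 4.64% in Tc/Tc E8 and 4.06% in WT E8.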
